A study of Mus musculus with 2 samples.

Results

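The 10 genes described here encode enzymes that build and cut the extracellular matrix of the lung, and the inhibitors of the cutting enzymes. They are Lox, Loxl1 and Loxl2 of the lysyl oxidase family, the matrix metalloproteinases Mmp2, Mmp3 and Mmp14, the tissue inhibitors of metalloproteinases Timp1, Timp2 and Timp3, and the secreted metalloproteinase Adamts1. They were chosen by gene symbol, and all 10 were found once among the 32286 features counted. Whole lung cells came from 2 libraries of female BALB/c mice aged 9 to 10 weeks. One library (CM) came from mice given control media intravenously for 3 weeks, and the other (TCM) from mice given medium conditioned by 4T1 mouse breast tumors over the same time. The lungs were digested with Liberase and DNase before 5-prime single-cell RNA sequencing. With 1 library per group, made from a number of mice that was not stated, no spread between mice was measured and no test was made.

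Lysyl oxidases cross-link collagen and elastin fibers and so stiffen the matrix. Metalloproteinases cut the fibers, basement membranes and bound growth factors, and each TIMP blocks several of them by sitting in the active site. In the lung, fibroblasts make most of the fiber matrix, and tumor-secreted lysyl oxidase is known for its part in preparing distant organs for metastasis. All of these proteins work outside the cell or at its surface, so RNA counts do not give enzyme activity.

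The filters left 7988 cells in CM (median 2085 unique molecular identifiers, UMIs, each a captured RNA molecule) and 7707 in TCM (median 2346). In all, 93 cell barcodes occurred in both libraries. Cells were assigned to 25 lung cell classes by marker genes, and 17 classes held at least 50 cells in both libraries. The names carry "-like" because they rest on these markers. In alveolar fibroblast-like cells (948 CM and 631 TCM) the 10 defining markers summed to a median of 50 UMIs per cell against 7 for the next list, that of airway epithelium. A class is a range on a marker count, and 18.6% of CM and 13.5% of TCM alveolar fibroblast-like cells led the next class by 1 marker. Over the 8 classes compared this share ran from 9.45% to 29.9%. No class was given to 15.9% of CM and 12.6% of TCM cells. Levels are given as CP100k, the UMIs of a gene per 100000 UMIs of the class in a library. All intervals are 95% intervals and cover counting error only. They take the UMIs of 1 cell as independent, so for every member they can be too narrow, most where few cells hold most UMIs. Because 5-prime counts were not scaled to length, levels were compared between classes and libraries and not between genes.

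Promoter sequences are shown for 3 members on which the results turn: Timp3 and Adamts1, which were both higher in TCM in general capillary-like cells, and Mmp3, which was held by few fibroblast-like cells. Each runs 5′ to 3′ on the gene's strand from 250 bases before to 50 bases after the RefSeq start site (build GRCm38.p6), and motifs found on either strand are in capitals. The 6 searched motifs were the AP-1 site TGANTCA, the cyclic AMP response element TGACGTCA, the TATA box TATAAA, the GC box GGGCGG, the CCAAT box CCAAT and the E-box CACGTG. The Timp3 window at chr10:86300162-86300461 (plus strand, 67.0% G or C) held 2 GC boxes. The Adamts1 window at chr16:85803064-85803363 (minus strand, 64.7% G or C) held 3 GC boxes and a TATA box. The Mmp3 window at chr9:7445572-7445871 (plus strand, 40.0% G or C) held an AP-1 site and a TATA box and no GC box. Of 32851 mouse promoter windows of this length, 35.7% held a GC box, 13.6% a TATA box and 7.81% an AP-1 site. A match of letters is a description and not a binding site.
Timp3: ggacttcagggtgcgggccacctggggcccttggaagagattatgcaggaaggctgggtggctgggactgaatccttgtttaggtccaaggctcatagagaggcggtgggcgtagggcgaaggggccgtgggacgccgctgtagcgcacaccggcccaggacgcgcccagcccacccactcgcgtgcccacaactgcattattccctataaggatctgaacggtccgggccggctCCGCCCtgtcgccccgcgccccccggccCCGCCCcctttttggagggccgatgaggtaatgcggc
Adamts1: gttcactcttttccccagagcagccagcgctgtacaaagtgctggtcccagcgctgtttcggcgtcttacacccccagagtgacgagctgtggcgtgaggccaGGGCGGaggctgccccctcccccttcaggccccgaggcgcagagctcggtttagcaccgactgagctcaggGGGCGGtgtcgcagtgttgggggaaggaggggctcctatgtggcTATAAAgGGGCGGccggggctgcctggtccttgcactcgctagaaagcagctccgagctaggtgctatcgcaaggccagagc
Mmp3: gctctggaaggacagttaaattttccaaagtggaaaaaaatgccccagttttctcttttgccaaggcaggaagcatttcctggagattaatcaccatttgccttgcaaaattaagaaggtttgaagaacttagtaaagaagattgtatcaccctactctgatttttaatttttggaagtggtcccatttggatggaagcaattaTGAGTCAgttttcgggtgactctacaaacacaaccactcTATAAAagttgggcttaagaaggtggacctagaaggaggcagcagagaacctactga

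Lox, the enzyme that cross-links collagen and elastin, was the member that differed most in the class that held most of it. In alveolar fibroblast-like cells its level was 17.7 CP100k in CM (594 UMIs, interval 16.3 to 19.2) and 31.3 in TCM (894 UMIs, interval 29.3 to 33.4). The difference on the log2 scale was 0.82 (interval 0.67 to 0.98), or a 1.77-fold ratio. These cells held 66.8% of all Lox UMIs in CM and 69.8% in TCM.

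Without allowing for depth, the difference lay in more cells with Lox and in more UMIs per cell. In CM, 35.5% of the 948 alveolar fibroblast-like cells had a Lox UMI, and in TCM 54.4% of the 631 did. Cells of this class held a median of 2661 UMIs in the CM library but 4459 in the TCM library, so cells were also thinned to 1000 UMIs each, which left 679 and 562 cells. After thinning, the share with a Lox UMI was 16.1% in CM (interval 13.4 to 19.03) and 25.8% in TCM (interval 22.2 to 29.6), and these intervals did not overlap. The unthinned share was 0.357% in CM and 0.334% in TCM alveolar macrophage-like cells, a class that should lack the gene. Without thinning, cells with 3 or more Lox UMIs made up 6.54% in CM and 18.9% in TCM. The UMIs per cell with Lox were not compared after thinning. With cells thinned, the class log2 ratio was 0.65, just below its interval of 0.67 to 0.98. No single cell carried the difference, since the 10 highest cells held 11.1% of the class's Lox UMIs in CM and 13.1% in TCM.

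**Figure D1:**
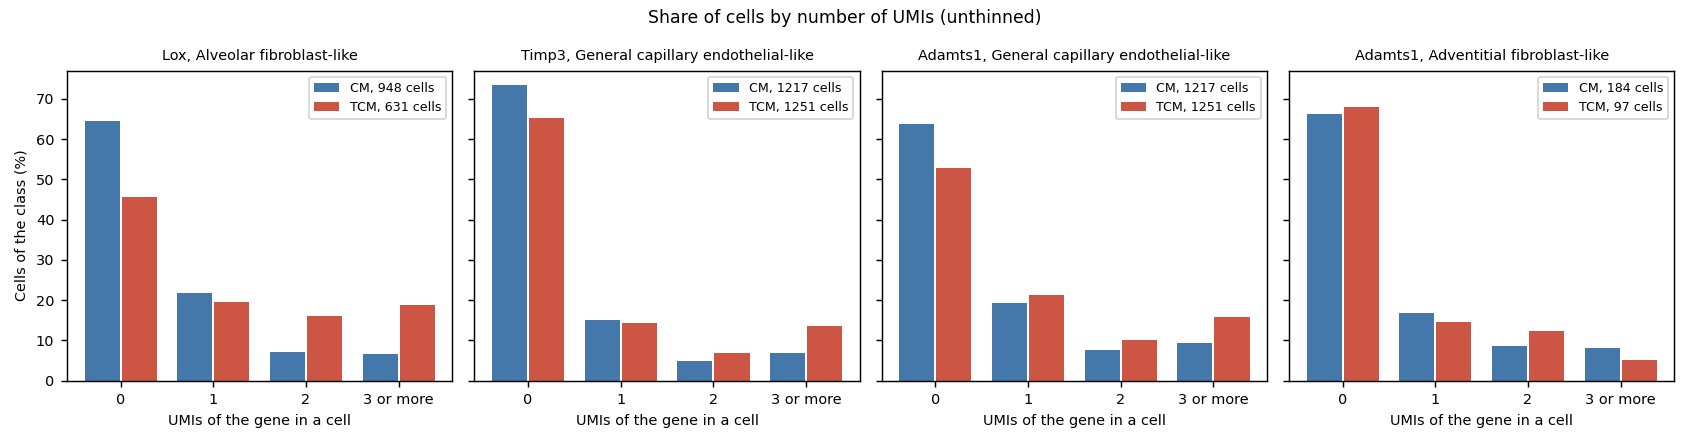
Share of cells (vertical axis, percent of the cells of the class, not thinned) with 0, 1, 2 or 3 or more UMIs of a gene (horizontal axis) in CM (blue) and TCM (red). For Lox in alveolar fibroblast-like cells, the share with 3 or more UMIs was 6.54% in CM and 18.9% in TCM, while Adamts1 in adventitial fibroblast-like cells went from 8.15% to 5.15%.

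The Lox difference was present in both groups of alveolar fibroblast-like cells that clustering separated without use of the members. In the larger group (cluster 3, 700 CM and 458 TCM cells) Lox went from 17.3 to 31.2 CP100k, giving a log2 ratio of 0.86 (interval 0.67 to 1.05). In the smaller (cluster 16, 133 and 100 cells) it went from 24.5 to 45.5 CP100k, giving a log2 ratio of 0.89 (interval 0.59 to 1.20). Other cells' RNA in the class moved too. The 10 neutrophil markers summed to 65.1 CP100k in CM and 87.0 in TCM alveolar fibroblast-like cells, with 10 of 10 higher in TCM and none at 0. The 8 classical monocyte markers went from 82.5 to 118 CP100k (6 of 8 higher). The 10 general capillary markers went from 97.7 to 126 (8 of 10 higher). The 10 B cell markers fell from 9.52 to 2.34 CP100k (10 of 10 lower, 2 at 0 in TCM). The part of these in the Lox value was not tested. Lox in neutrophil-like cells themselves had 0 UMIs in 282 CM cells, with an interval up to 0.893 CP100k, and 11 UMIs (0.400 CP100k) in 1492 TCM cells. Free RNA, which droplets take up from outside the cell, was expected to give 5.51 of the 594 Lox UMIs in CM and 11.3 of 894 in TCM. This takes the same amount of free RNA for every cell of a library, which the hemoglobin gene Hbb-bs did not follow. Hbb-bs had 60 UMIs in 631 TCM alveolar fibroblast-like cells and 2395 in 1251 TCM general capillary-like cells. The expected counts can therefore be too high or too low for a class.

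Outside alveolar fibroblast-like cells Lox was low. Adventitial fibroblast-like cells, the fibroblasts around airways and vessels, had 8.82 CP100k in CM (58 UMIs) and 10.6 in TCM (48 UMIs), giving a log2 ratio of 0.26 (interval -0.32 to 0.84). Smooth muscle-like cells had 4.96 and 4.46 CP100k. In CM the interval of alveolar fibroblast-like cells lay above that of adventitial fibroblast-like cells (6.70 to 11.4), which met that of smooth muscle-like cells (3.58 to 6.71) at its edge. Aerocyte-like cells, the capillary cells that face the air spaces, went from 4 to 21 Lox UMIs, giving a log2 ratio of 1.99 (interval 0.43 to 4.0). In a mean over cells, which gives each cell the same weight, the aerocyte-like ratio was 0.48.

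Loxl1, which is needed for elastic fiber upkeep, was nearly equal in alveolar fibroblast-like cells at 58.6 CP100k in CM (1968 UMIs) and 58.4 in TCM (1669 UMIs), or a 0.997-fold ratio. The interval of its log2 ratio ran from -0.10 to 0.09. It was 68.3 and 72.1 CP100k in adventitial fibroblast-like cells and 32.0 and 32.5 in smooth muscle-like cells, in both cases with an interval that held 0. General capillary-like cells, the more common lung capillary type, had 1.81 and 1.17 CP100k, giving a log2 ratio of -0.64 (interval -1.16 to -0.12), which turned to 0.18 when classes came from clusters. In the same cells the 10 alveolar fibroblast markers summed to 63.1 CP100k in CM and 45.6 in TCM, 8 of 10 being lower and none at 0. The part of this in the Loxl1 value was not tested.

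Loxl2, which cross-links collagen of basement membranes, was spread over mural and fibroblast classes. Pericyte-like cells, which wrap capillaries, had 12.3 CP100k in CM and 14.8 in TCM, with 101 UMIs in each. Smooth muscle-like cells had 11.9 and 12.1 CP100k, and adventitial fibroblast-like cells 9.89 and 7.94. The 3 intervals of CM overlapped, so the order of these classes is not given by these counts. The TCM over CM log2 ratios were 0.27 (interval -0.15 to 0.68) in pericyte-like and 0.03 (interval -0.38 to 0.43) in smooth muscle-like cells. Alveolar fibroblast-like cells had 2.05 CP100k of Loxl2 in CM and 1.75 in TCM.

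**Figure D2:**
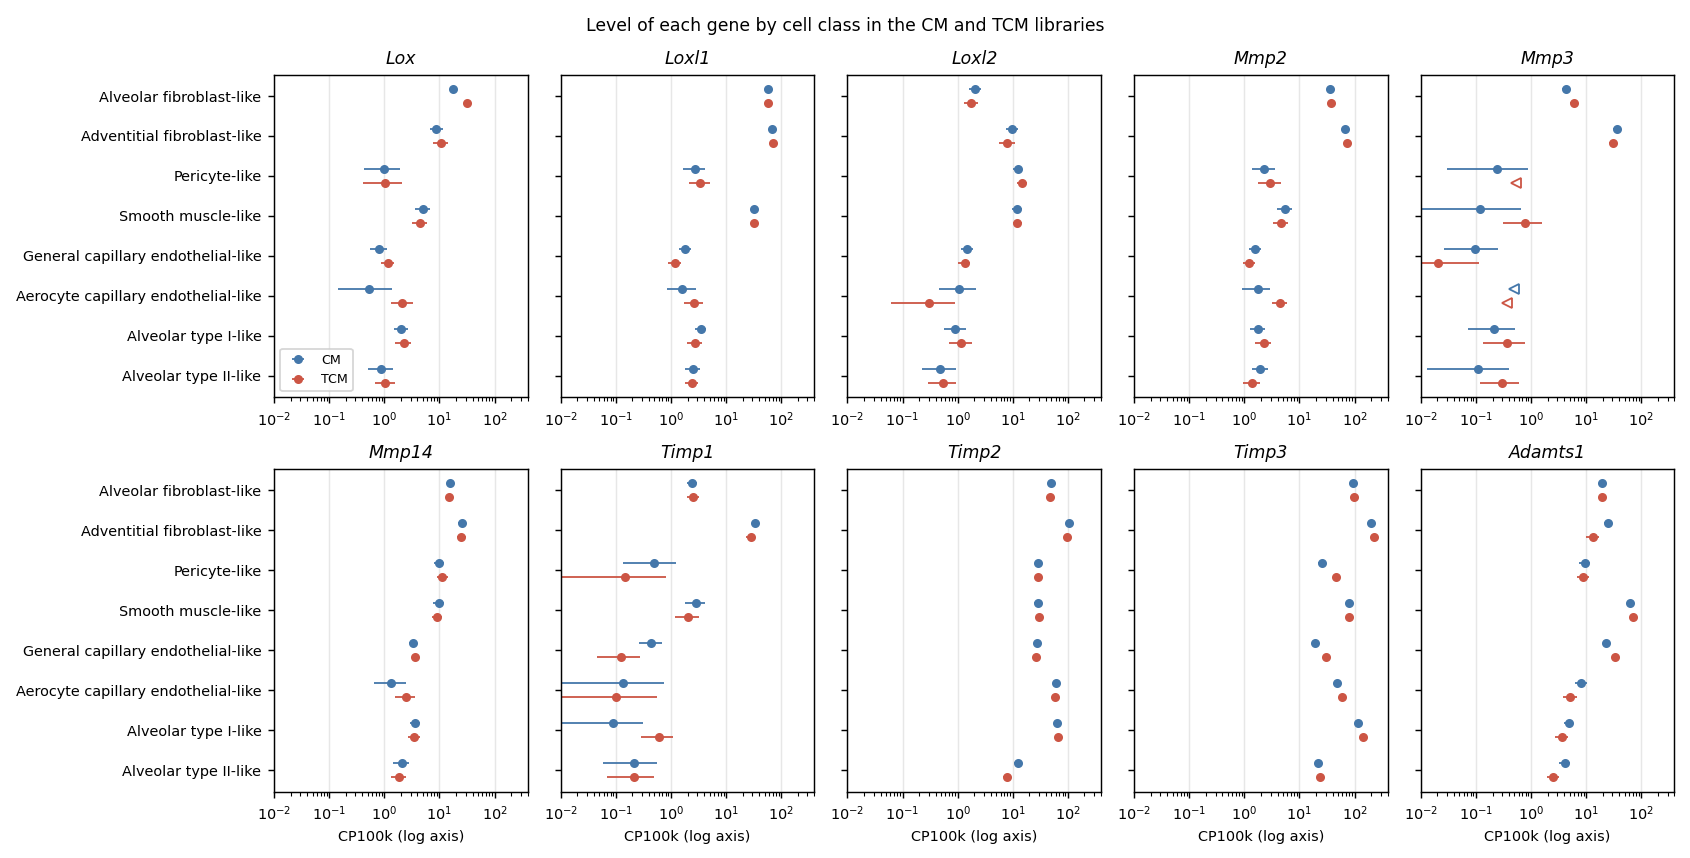
Level of each of the 10 genes (horizontal log axis, CP100k) in 8 cell classes (vertical axis) in CM (blue) and TCM (red), with 95% counting intervals as bars. An open triangle marks a class with 0 UMIs, at the upper limit of its interval, and bars that reach the left edge go on below it. Lox in alveolar fibroblast-like cells is at 17.7 in CM and 31.3 in TCM, while Loxl1 there is at 58.6 and 58.4.

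Mmp2, the gelatinase that cuts basement membrane and denatured collagen, had its highest levels in fibroblasts. In adventitial fibroblast-like cells it was 68.3 CP100k in CM (449 UMIs) and 72.1 in TCM (327 UMIs). Loxl1 had the same sums in this class, from 103 CM cells where Mmp2 came from 105. In alveolar fibroblast-like cells Mmp2 was 35.1 and 37.4 CP100k, giving a log2 ratio of 0.09 (interval -0.03 to 0.21). Aerocyte-like cells went from 13 to 43 UMIs of Mmp2, giving a log2 ratio of 1.33 (interval 0.40 to 2.35). A single cell held 21 of the 43, but leaving out the highest cell of each library still gave 1.25. Under 10 alternative settings the lowest value was 0.53, found when each cell had the same weight, and the highest was 1.92. The 10 alveolar fibroblast markers summed to 47.7 CP100k in CM and 79.1 in TCM aerocyte-like cells, with 9 of 10 higher and 1 at 0 in CM. Lox, Loxl1, Mmp2 and Mmp14 had more UMIs there in TCM (Mmp14 10 and 24 UMIs), and the part of fibroblast RNA in these values was not tested. In the aerocyte-like cells that also fell into the aerocyte cluster, Mmp14 had 5 and 9 UMIs.

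Mmp14, the membrane-bound metalloproteinase that activates Mmp2, was found in more classes. Its level was 25.6 CP100k in CM and 24.9 in TCM adventitial fibroblast-like cells, 15.5 and 14.7 in alveolar fibroblast-like cells, 9.90 and 11.3 in pericyte-like cells and 9.69 and 9.14 in smooth muscle-like cells. The log2 ratios of these 4 classes lay between -0.08 and 0.19, and all 4 intervals held 0. General capillary-like cells had 3.33 and 3.66 CP100k.

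Mmp3, the stromelysin that cuts many matrix proteins and activates other metalloproteinases, was held by few cells. Adventitial fibroblast-like cells had 235 UMIs in 37 of 184 cells in CM and 142 UMIs in 17 of 97 cells in TCM. Their levels were 35.7 and 31.3 CP100k, giving a log2 ratio of -0.19 (interval -0.50 to 0.12). The 10 highest cells held 78.3% of these UMIs in CM and 88.7% in TCM. In alveolar fibroblast-like cells 143 UMIs came from 36 cells in CM and 171 UMIs from 22 cells in TCM, at 4.26 and 5.98 CP100k.

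The alveolar value of Mmp3, giving a log2 ratio of 0.49 (interval 0.16 to 0.82), was made of opposite parts. In cluster 3 it was lower in TCM, with 88 UMIs in 21 of 700 CM cells and 35 UMIs in 7 of 458 TCM cells. In cluster 16 it was higher, with 53 UMIs in 13 of 133 CM cells and 130 UMIs in 13 of 100 TCM cells. The log2 ratios were -1.09 (interval -1.70 to -0.51) and 1.66 (interval 1.18 to 2.14). Thinning to 1000 UMIs turned the class ratio to -0.13. With so few cells, counting intervals on UMIs understate the error of Mmp3, because the UMIs of 1 cell are not independent. Cells without a class held 3.63% of all Mmp3 UMIs in CM and 15.8% in TCM.

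**Figure D3:**
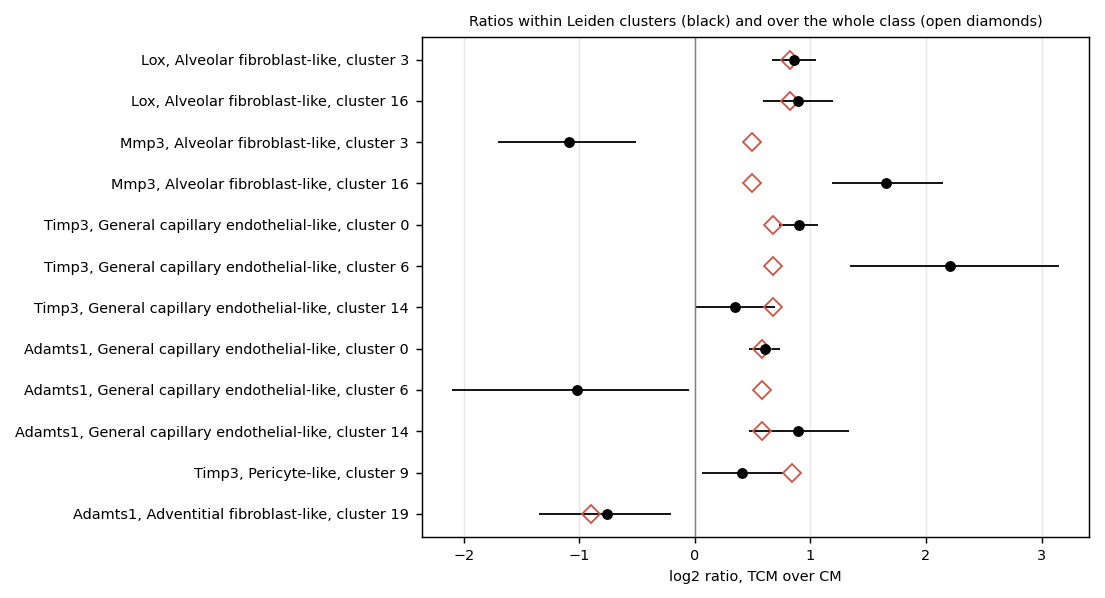
Log2 ratio of TCM over CM (horizontal axis) of a gene within the cells of a class that fell into one cluster (black points, bars are 95% counting intervals), with the ratio over the whole class as an open diamond. Lox in alveolar fibroblast-like cells was 0.86 and 0.89 in its 2 clusters, while Mmp3 was -1.09 and 1.66.

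Timp3, the inhibitor that binds to the matrix itself, had 11399 UMIs in CM and 11954 in TCM over all cells. In CM its level was 195 CP100k in adventitial fibroblast-like cells (interval 185 to 206), 113 in alveolar type I-like cells (interval 109 to 118), 94.3 in alveolar fibroblast-like cells (interval 91.0 to 97.6) and 80.2 in smooth muscle-like cells (interval 74.3 to 86.5). These 4 intervals did not overlap. Over all cells the log2 ratio was 0.01 (interval -0.02 to 0.05), but the classes differed.

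General capillary-like cells had 19.4 CP100k of Timp3 in CM (802 UMIs, 1217 cells) and 30.8 in TCM (1482 UMIs, 1251 cells), giving a log2 ratio of 0.67 (interval 0.55 to 0.80). Pericyte-like cells had 25.4 and 45.4 CP100k (208 and 309 UMIs), giving a log2 ratio of 0.84 (interval 0.58 to 1.1). Alveolar type I-like cells, the flat cells of the air space wall, had 113 and 144 CP100k (2606 and 2377 UMIs), giving a log2 ratio of 0.34 (interval 0.26 to 0.42). In these cells the 10 alveolar type I markers summed to 3324 CP100k in CM and 3982 in TCM (log2 ratio 0.26, 9 of 10 higher), and the 10 alveolar type II markers to 336 and 178 (9 of 10 lower), with none at 0 in either list. Their part in the Timp3 value was not tested. Aerocyte-like cells had 48.4 and 58.5 CP100k, giving a log2 ratio of 0.27 (interval 0.08 to 0.47). Adventitial fibroblast-like cells had 195 and 221 CP100k (log2 ratio 0.18, interval 0.06 to 0.30), but a mean over cells gave -0.024. Alveolar fibroblast-like cells had 94.3 and 97.4 CP100k (interval of the log2 ratio -0.03 to 0.12) and smooth muscle-like cells 80.2 and 78.9. After thinning, 57.5% of CM (interval 52.6 to 62.2) and 69.7% of TCM alveolar type I-like cells (interval 63.5 to 75.4) had a Timp3 UMI, whereas the shares of aerocyte-like cells were 33.5% and 31.7%.

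The pericyte-like value depended on which cells were counted. In the 260 CM and 198 TCM pericyte-like cells that also fell into the pericyte cluster, Timp3 was 20.6 and 27.4 CP100k, giving a log2 ratio of 0.41 (interval 0.06 to 0.76), and with cells thinned the class ratio was 0.51. The 10 highest cells held 44.7% of the class's Timp3 UMIs in CM and 46.6% in TCM. The 10 aerocyte markers summed to 116 CP100k in CM and 146 in TCM pericyte-like cells, with 9 of 10 higher and none at 0. The 10 smooth muscle markers went from 163 to 221 CP100k (8 of 10 higher, none at 0), the 10 alveolar type II markers from 51.6 to 83.7 (8 of 10 higher, none at 0) and the 10 neutrophil markers from 41.9 to 82.8 (10 of 10 higher, 1 at 0 in CM). The part of these in the Timp3 value was not tested. In general capillary-like cells the ratio was 0.90 (interval 0.73 to 1.07) in the main cluster of 861 CM and 976 TCM cells. It was 0.35 (interval 0.01 to 0.70) in cluster 14 and 2.21 (interval 1.34 to 3.15) on 15 and 47 UMIs in cluster 6, neither of which took a name. After thinning, 13.8% of CM (interval 11.7 to 16.1) and 17.8% of TCM general capillary-like cells (interval 15.6 to 20.2) had a Timp3 UMI, and these intervals overlapped. Free RNA, taken at the same amount for every cell of a library, was expected to give 67.7 of the 802 UMIs and 122 of the 1482.

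Timp1, an inhibitor that is commonly induced in injury, had the lowest TCM over CM ratio of the members over all cells. It went from 465 UMIs in CM to 337 in TCM, giving a log2 ratio of -0.52 (interval -0.73 to -0.31). Adventitial fibroblast-like cells held 47.1% of it in CM and 37.7% in TCM, and their level was 33.3 CP100k in CM and 28 in TCM, giving a log2 ratio of -0.25 (interval -0.58 to 0.07). These cells were 2.30% of CM (interval 1.99 to 2.66) and 1.26% of TCM cells (interval 1.02 to 1.53), while neutrophil-like cells were 3.53% and 19.4%. How far these shares set the value over all cells was not tested. In adventitial cluster 19 alone (99 and 60 cells) Timp1 was 42.8 and 27.2 CP100k, with a log2 ratio of -0.65 (interval -1.02 to -0.29). Mesothelial-like cells, which line the lung surface, numbered 33 in CM and 49 in TCM and had 39.9 and 39.0 CP100k. General capillary-like cells had 18 and 6 UMIs of Timp1, and 9 of the 18 came from a single cell.

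Timp2, which both inhibits metalloproteinases and helps Mmp14 to activate Mmp2, was found in nearly every class. Mesothelial-like cells had 260 CP100k in CM and 240 in TCM, adventitial fibroblast-like cells 106 and 98.3, alveolar type I-like cells 63.3 and 64.9, aerocyte-like cells 61.5 and 59.1 and alveolar fibroblast-like cells 49.5 and 48.2. In the last 4 classes the intervals of the log2 ratio held 0.

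Alveolar type II-like cells, which make surfactant, were lower in Timp2, with 12.3 CP100k in CM (226 UMIs) and 7.78 in TCM (186 UMIs), giving a log2 ratio of -0.66 (interval -0.94 to -0.37). A cell of this class held a median of 2580 UMIs in CM against 5913 in TCM. After thinning, 13.8% of 334 CM cells (interval 10.3 to 17.9) and 4.71% of 361 TCM cells (interval 2.77 to 7.43) had a Timp2 UMI. The class log2 ratio was -0.997 with cells thinned and -0.36 under a stricter gate (at least 3 markers, a lead of at least 2). Both values lay outside the interval of the ratio. The 8 airway epithelial markers summed to 818 CP100k in CM and 3664 in TCM alveolar type II-like cells, with 5 of 8 higher and 1 at 0 in each library, and their part in the lower Timp2 was not tested. In the alveolar type II cluster alone, Timp2 was 7.16 and 4.59 CP100k. Neutrophil-like cells, at 282 in CM and 1492 in TCM, had 11.1 and 17.8 CP100k of Timp2, giving a log2 ratio of 0.67 (interval 0.24 to 1.14).

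Adamts1, which cuts the proteoglycans aggrecan and versican, differed in opposite directions between classes. General capillary-like cells had 22.8 CP100k in CM (944 UMIs) and 34.0 in TCM (1636 UMIs), giving a log2 ratio of 0.58 (interval 0.46 to 0.70). They held 29.9% of all Adamts1 UMIs in CM and 44.3% in TCM. After thinning, 18.5% of CM (interval 16.1 to 21.0) and 25.4% of TCM cells (interval 22.9 to 28.1) had an Adamts1 UMI, and these intervals did not overlap. Within the main capillary cluster the log2 ratio was 0.60 (interval 0.47 to 0.74). In the cells of the class that fell into cluster 6, which took no name, it was -1.03 on 36 and 12 UMIs.

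Adventitial fibroblast-like cells went the other way, from 24.6 CP100k in CM (162 UMIs) to 13.2 in TCM (60 UMIs), giving a log2 ratio of -0.90 (interval -1.35 to -0.46). A single CM cell held 29 of the 162 UMIs, and without the highest cell of each library the ratio was -0.76. Of 2 clusters named from adventitial markers, cluster 19 held cells of both libraries, and cluster 25 held 30 CM and 0 TCM cells. The ratio was -0.77 (interval -1.35 to -0.20) within cluster 19 and -0.92 without the clusters of 1 library. The share of cells with an Adamts1 UMI was 33.7% of 184 CM cells and 32.0% of 97 TCM cells, at median depths of 2210.5 and 4716 UMIs, and 16.5% and 12.5% after thinning, with intervals that overlapped. The 10 alveolar type II markers summed to 103 CP100k in CM and 37.0 in TCM adventitial fibroblast-like cells, with 9 of 10 lower and none at 0, and their part was not tested. Adamts1 in alveolar type II-like cells was itself lower in TCM, at 4.07 and 2.51 CP100k (75 and 60 UMIs), giving a log2 ratio of -0.70. That ratio became -1.55 with cells thinned and -0.44 under the stricter gate. Smooth muscle-like cells had the highest CM level of the 17 classes, 62.3 CP100k in CM (interval 57.1 to 67.8) and 69.8 in TCM, with a log2 ratio of 0.16 (interval -0.01 to 0.33). Alveolar fibroblast-like cells had 19.1 and 19.3 CP100k. Aerocyte-like cells had 8.16 and 5.17 CP100k of Adamts1 (61 and 51 UMIs, log2 ratio -0.66, interval -1.22 to -0.10), which turned to 0.24 when classes came from clusters. The 12 genes that respond to tissue dissociation had a median log2 ratio of -0.51 in aerocyte-like cells (1 of 12 higher) and -0.11 in alveolar type II-like cells (5 of 12 higher), and their part in Adamts1 was not tested. Whether the classes differ in their response was not tested.

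**Figure D4:**
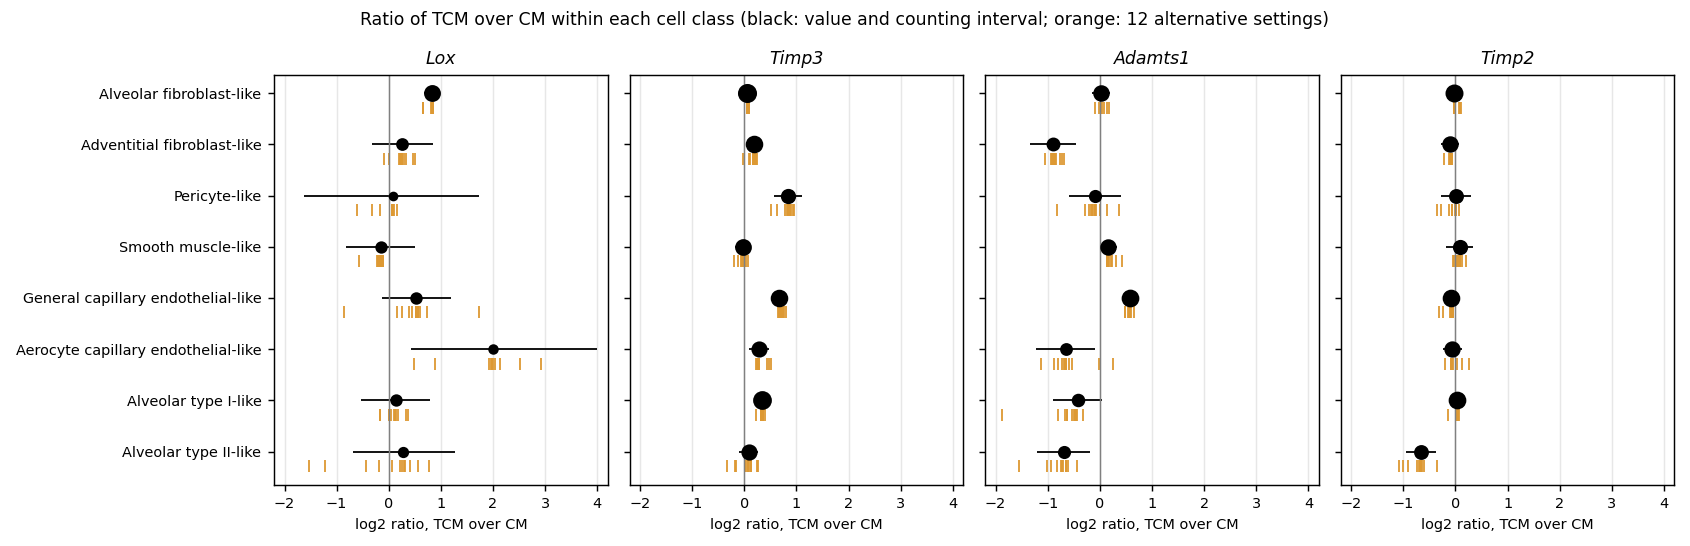
Log2 ratio of TCM over CM (horizontal axis) of Lox, Timp3, Adamts1 and Timp2 in 8 cell classes (vertical axis). Black points with bars are the values and 95% counting intervals, larger points have more UMIs, and orange ticks are the values under 12 alternative settings. Adamts1 is at 0.58 in general capillary-like and -0.90 in adventitial fibroblast-like cells.

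Few members passed a 2-fold difference in the 8 classes compared. In alveolar fibroblast-like cells 0 of 10 did in either direction, beside 2.46% of all 12263 genes with at least 10 UMIs higher and 3.50% lower. Lox alone (1 of 10) was at least 1.5-fold higher, beside 6.49% of all genes, and 0 were 1.5-fold lower, beside 8.64%. The 1.5-fold limit was chosen after the values were seen. The median log2 ratio of the members there was 0.03, against -0.01 over all genes.

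In adventitial fibroblast-like cells 0 of 10 members passed 2-fold, beside 4.22% of all genes higher and 8.18% lower. Adamts1 (1 of 10) was past 1.5-fold lower, beside 18.1%, and 0 were past it higher, beside 12.2%, with a member median of -0.07 against -0.03. In pericyte-like cells 0 of 8 passed 2-fold, beside 4.0% higher and 4.32% lower, and Timp3 (1 of 8) was past 1.5-fold higher, beside 10.7%, with 0 lower beside 11.6%. The pericyte-like medians were 0.23 and -0.01. In smooth muscle-like cells 0 of 9 passed 2-fold, beside 6.29% higher and 3.35% lower, and the medians were -0.02 and 0.03.

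In general capillary-like cells 0 of 9 members were past 2-fold higher, beside 2.87% of all genes, and Timp1 (18 and 6 UMIs) was past it lower, beside 4.29%. Its log2 ratio of -1.80 became -0.43 when classes came from clusters and -0.45 without the cells of highest doublet score, both short of 2-fold. Past 1.5-fold there were Timp3 higher, beside 7.03%, and Loxl1 and Timp1 lower, beside 8.51%. In aerocyte-like cells 2 of 8 were past 2-fold higher (Lox and Mmp2), beside 5.30%, and 1 lower (Loxl2, on 8 and 3 UMIs), beside 3.33%. The Loxl2 log2 ratio of -1.81 had an interval that held 0, and it turned to 0.38 when classes came from clusters. In alveolar type I-like cells 1 of 10 was past it higher (Timp1, on 2 and 10 UMIs), beside 3.08%, and 0 lower, beside 4.61%. In alveolar type II-like cells 0 of 8 passed it, beside 4.28% higher and 4.96% lower. In these 8 classes the differences past 2-fold thus had 3 to 43 UMIs in TCM, and differences that rested on more UMIs were smaller. The rest of the 17 classes held fewer member UMIs, and their members past 2-fold are not counted here. Among them, the median of 4 members was 1.07 in dendritic-like cells (179 member UMIs), against -0.01 over all genes. In alveolar macrophage-like cells it was -0.995 (4 members, 299 member UMIs), against 0.10.

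Other genes of matrix turnover were read from 5 lists, of 13 collagen-modifying enzymes, 19 other metalloproteinases, 20 other ADAMTS genes, 8 other inhibitors and 17 plasminogen-system and other proteases. In alveolar fibroblast-like cells 0 of 11 collagen-modifying enzymes with at least 10 UMIs passed 2-fold, and the list median was 0.10. Of 9 other metalloproteinases there, 1 was past 2-fold higher and 1 lower (Mmp12, the macrophage elastase, on 38 and 13 UMIs). The ADAMTS list had a median of 0.30 with 11 of 15 genes higher, beside 48.5% of all genes, and 1 past 2-fold lower. Past 2-fold were also 0 of 6 inhibitors and 2 of 16 plasminogen-system and other proteases, both higher. Adamts9, another proteoglycan-cutting enzyme, in general capillary-like cells went from 8.84 to 18.3 CP100k (366 and 878 UMIs), giving a log2 ratio of 1.05 (interval 0.87 to 1.23), and in smooth muscle-like cells from 23 to 51 UMIs.

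Adventitial fibroblast-like cells had higher Adamtsl2, which binds fibrillin microfibrils (31 and 57 UMIs, log2 ratio 1.41), higher Adamts15 (16 and 36 UMIs, 1.71) and higher Mmp19 (13 and 26 UMIs, 1.54). P4ha3, a subunit of the enzyme that hydroxylates collagen prolines, was lower in them (34 and 9 UMIs, log2 ratio -1.38) and in smooth muscle-like cells (46 and 14 UMIs, -1.80). Smooth muscle-like cells were also lower in Plat, the tissue plasminogen activator (39 and 11 UMIs, -1.91), and in the collagen-cutting protease Ctsk (33 and 7 UMIs, -2.32), and higher in Adam19 (18 and 40 UMIs, 1.07). In alveolar type I-like cells Plat was higher (20 and 33 UMIs, 1.20). Mmp9 in general capillary-like cells had 7 and 25 UMIs. Of the 12 genes that respond to tissue dissociation, 0 passed 2-fold in alveolar fibroblast-like cells (median -0.20), general capillary-like cells (median -0.06) and adventitial fibroblast-like cells (median 0.10). In smooth muscle-like cells the heat shock genes Hspa1a and Hspa1b of this list were lower in TCM (log2 ratios -1.16 and -1.07), and in alveolar type I-like cells Hspa1b was (-2.24). The list median was -0.55 in alveolar type I-like cells, with 2 of 12 higher. In aerocyte-like and alveolar type II-like cells Hspa1a and Hspa1b were past 2-fold lower. Of 8 genes of blood and free RNA, 2 were past 2-fold higher and 4 lower in alveolar fibroblast-like cells, among them the neutrophil gene S100a9 (251 and 1681 UMIs) and the hemoglobin gene Hbb-bs (1756 and 60 UMIs). In general capillary-like cells 6 of the 8 were past 2-fold higher, S100a9 with 607 and 1789 UMIs, and Scgb1a1 of airway club cells was past it lower. The part of this RNA in the members' values was not tested.

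For 9 of the members, the genes with the most similar levels were read over 17 classes in both libraries (34 points, which share libraries, depth and cell classes). Pearson's r of log2(CP100k + 1) was 0.98 between Loxl1 and Mgp, an inhibitor of calcification, 0.97 between Loxl2 and Fam124a, 0.96 between Mmp2 and the growth factor Fgf7, 0.99 between Mmp3 and Sult5a1 and 0.93 between Mmp14 and Crtap, a collagen prolyl hydroxylation partner. It was 0.97 between Timp1 and the hyaluronan synthase Has1, 0.90 between Timp2 and Pmp22, 0.94 between Timp3 and the collagen chaperone Serpinh1 and 0.92 between Adamts1 and Tgfb1i1. The smooth muscle kinase Mylk came next for Adamts1 at 0.92. Each r but the last was the highest for that member among genes with at least 300 UMIs, so it describes the choice.

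By the annotation of GRCm38, all 10 members are protein-coding genes, on chromosomes 8, 9, 10, 11, 14, 16, 18 and X. Timp3 (chr10:86300372-86349506, plus strand, 5 exons) lies inside Syn3, a gene of the opposite strand that had 125 UMIs in CM and 148 in TCM cells. Timp1 (chrX:20870166-20874735, plus strand, 6 exons) lies inside Syn1 on the opposite strand, which had 15 and 42 UMIs. Timp2 (chr11:118301069-118355740, minus strand, 5 exons) overlaps Cep295nl on the same strand, with 5 and 16 UMIs. The start of Lox (chr18:52516067-52529867, minus strand, 7 exons) overlaps Gm41724, an antisense gene with 13 UMIs in CM and 12 in TCM. Whether counting used strand was not given in the sources used here, so reads of these partners may not be told apart. The members themselves had more UMIs, 465 and 337 for Timp1 and 8212 and 7695 for Timp2.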

How the data were processed

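RNA of single cells from whole lung was counted in 1 CM and 1 TCM library, grouped by the treatment label. The authors made 5-prime droplet libraries (10x Genomics), sequenced them on a NovaSeq and mapped them with Cell Ranger (4, per the file headers) to mm10 (GRCm38.p6). The deposited files hold raw UMI counts for 737280 barcodes and 32286 features, with no normalization, and sum to 31944151 UMIs in CM and 36648719 in TCM.

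Cells had at least 500 UMIs, at least 200 genes and at most 10% mitochondrial UMIs, as in the study's methods. A cell took the class with the most markers above their expected free RNA (Poisson p under 0.01, at least 2 markers, a lead of at least 1); this gate was built after the files were seen. Free RNA came from droplets of at most 50 UMIs, at 176 UMIs per CM and 285 per TCM cell. Every cell of a library was given the same amount. From droplets of 51 to 200 UMIs the amounts were 118 and 145. UMIs were summed per class and library. Ratios needed at least 10 UMIs, a library at 0 counted as 3, and intervals were exact Poisson, Clopper-Pearson or conditional binomial. Scrublet's threshold marked 2 CM and 0 TCM cells, so it had not worked; the top scores (413 and 432 cells) were kept and left out only as an alternative. Clustering used scanpy 1.11.5 and leidenalg 0.10.2, without the members. No test was possible with 1 library per group. Ratios and intervals were run on simulated sums, drawn as independent counts from 1 class without spread between cells or libraries. That run checks the calculation and cannot show whether the intervals are wide enough for real cells.

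The members and lists were chosen with earlier results of these data known. Besides the members, genes of the lists were named where they had at least 30 UMIs, a ratio past 2-fold and an interval without 0, up to 3 per list and class in the 5 classes with most member UMIs. The blood and free RNA list was read the same way. Some genes that met these rules are not reported here. Of 32286 feature identifiers, 32235 were found in GENCODE vM21. Promoters are RefSeq sequences, and 6 members had one in the table used.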

Additional observations from a re-analysis of the deposited data

Results flagged for a closer look

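Adamts1 is listed because its difference between TCM and CM had opposite signs in classes of the same libraries. The log2 ratio was 0.58 in general capillary-like cells and -0.90, -0.66 and -0.70 in adventitial fibroblast-like, aerocyte-like and alveolar type II-like cells. The difference between classes was not tested, and the aerocyte-like value turned to 0.24 with classes taken from clusters.

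Droplets without a cell (at most 50 UMIs) were not used as a measurement in any comparison above. In them, 2 members were higher in TCM with an interval that left out 0. Lox had 23 of 696980 UMIs in CM and 27 of 431071 in TCM, giving a log2 ratio of 0.92 (interval 0.07 to 1.79). Adamts1 had 61 and 56 UMIs, giving a log2 ratio of 0.57 (interval 0.02 to 1.12). Both intervals come close to 0. Loxl1 (42 and 15 UMIs, log2 ratio -0.79), Mmp14 (27 and 9 UMIs, -0.89), Mmp2 and Timp1 were lower in TCM. Loxl2, Timp2 and Timp3 were higher, and the intervals of all of these held 0. The share of all genes that pass the same rule was not computed.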

How the results depend on the processing

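Each of 72 ratios (members with at least 10 UMIs in 8 classes) was recomputed under up to 12 alternatives, 2 of them chosen after seeing the data, which gave 843 values. Of these, 784 lay inside the counting interval, and the rest lay outside it. The log2 ratio of Lox in alveolar fibroblast-like cells ran from 0.65 (cells thinned) to 0.86 (clusters), that of Timp3 in general capillary-like cells from 0.65 to 0.81, of Adamts1 there from 0.48 to 0.66 and of Adamts1 in adventitial fibroblast-like cells from -1.06 to -0.68. Of the 17 ratios whose interval left out 0, 4 changed sign: Mmp3 in alveolar fibroblast-like cells (-0.13 with cells thinned), Timp3 in adventitial fibroblast-like cells (-0.024 as a mean over cells), Loxl1 in general capillary-like cells (0.18 with classes from clusters) and Adamts1 in aerocyte-like cells (0.24 with classes from clusters). The cause was not tested. The share of all genes whose interval left out 0 was not computed, so the count of 17 is not a result about the members. The median over members moved outside its members' median bounds in general capillary-like (-0.23) and alveolar type II-like cells (-0.90) as a mean over cells, and in aerocyte-like cells (1.18) under a stricter gate. In the order alveolar fibroblast-like, adventitial fibroblast-like, pericyte-like, smooth muscle-like, general capillary-like, aerocyte-like, alveolar type I-like and alveolar type II-like, the share of all genes past 2-fold with at least 30 in place of 10 UMIs was 0.934%, 1.19%, 1.26%, 2.75%, 1.23%, 1.99%, 0.974% and 1.99% higher in TCM and 1.24%, 3.22%, 1.32%, 0.988%, 1.31%, 0.858%, 1.9% and 2.35% lower, and the share past 1.5-fold, chosen after seeing the data, was 6.49%, 12.2%, 10.7%, 14.6%, 7.03%, 13.2%, 8.4% and 10.5% higher and 8.64%, 18.1%, 11.6%, 9.99%, 8.51%, 10.5%, 10.8% and 12.3% lower. No paired analysis was possible because each group had 1 library and no result came from a test. Leaving out a library was not possible for the same reason. Depth limits Lox, Mmp3 and Timp1 outside fibroblast-like cells, where few UMIs were counted.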

Other observations

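Classes with fewer than 50 cells in a library are given as levels only. Lymphatic endothelial-like cells (14 CM and 10 TCM) had 231 and 313 CP100k of Timp3 and 15.7 and 31.8 CP100k of Mmp14. Large vessel endothelial-like cells (74 and 44) had 66.6 and 117 CP100k of Timp3 (104 and 116 UMIs) and 33.3 and 62.3 CP100k of Adamts1 (52 and 62 UMIs), and 60.8% and 63.6% of them led the next class by 1 marker. Alveolar macrophage-like cells had 40 and 14 UMIs of Timp3, and 18 of the 40 came from a single cell.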
